A study of Mus musculus with 6 samples.

Results

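Hepatocytes are not alike along the path of blood through the liver lobule, and 31 genes known for this zonation are described here in liver non-parenchymal cells. Of these, 16 are known for expression around the central vein (pericentral) and 15 for expression around the portal tract (periportal), with albumin (Alb) counted among the periportal genes. They were matched by gene name from a list of known zoned genes, and all 31 were found among the 53546 genes of the count tables.

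Every mouse was male and had received an intraperitoneal injection of acetaminophen, 400 mg/kg, 6 h before RNA was taken. There were 3 libraries from SRA-/- mice, in which Msr1, the gene of the macrophage scavenger receptor A, is disrupted, and 3 from wild type mice treated alike. The labels name no strain, no age and no disrupted Msr1 exon. Uninjected mice are not analysed here, and the comparison is between genotypes after the drug and does not measure the effect of the drug. The study asked about the receptor in liver inflammation caused by acetaminophen, a drug whose reactive metabolite forms mainly in pericentral hepatocytes, and both gene sets were therefore compared in each library.

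Pericentral hepatocytes receive blood poor in oxygen and are kept in their state by Wnt signals from the endothelium of the central vein, acting through beta-catenin. They make glutamine from ammonia, run the cytochrome P450 reactions that activate many drugs and synthesise bile acids. Periportal hepatocytes receive blood rich in oxygen and nutrients and carry out the urea cycle, amino acid breakdown and gluconeogenesis. In a preparation of non-parenchymal cells, hepatocyte transcripts come from hepatocytes or hepatocyte RNA carried along, and some of the genes are also transcribed by endothelial cells or macrophages. In bulk RNA, fewer hepatocytes and less RNA per hepatocyte cannot be told apart.

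Gene counts summed to between 23757203 and 44003902 per library. Thus 6 counts, or 3 read pairs, equal 0.136 to 0.253 per 1000000 counts before library sizes are scaled. All CPM values here are counts per 1000000 counts after that scaling. Markers of endothelial, Kupffer and stellate cells were detected in every library, 21 genes with none at 0, and so was hepatocyte RNA: the 15 periportal genes took 2.56% to 7.50% of all counts and the 16 pericentral genes 0.0987% to 0.111%. Msr1 still gave 40.2, 33.6 and 42.0 CPM in SRA-/- libraries 1, 2 and 3, against 38.6, 73.5 and 114 CPM in wild type libraries 1, 2 and 3. Its groups overlapped, at a log2 fold change of -0.96 ± 0.33 (SE; edgeR unadjusted p 0.0166, adjusted p 0.9999). Because the disrupted exon is not named, a count over the whole gene does not check the genotype.

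No tested gene of either set passed the test between SRA-/- and wild type cells. Of 30 tested genes, 0 passed edgeR's quasi-likelihood test at an adjusted p under 0.05, where 0.0487% of all 20541 tested genes did, and DESeq2 and limma-voom called 0 as well. At an unadjusted p under 0.05, edgeR and DESeq2 gave 0 of 30. By edgeR 3.22% of all tested genes passed at that level, 2.32% higher and 0.896% lower in SRA-/- cells. By limma-voom 7 of 30 passed at that level, against 11.6% of all tested genes. The groups overlapped in 30 of 30 tested genes, while they did not overlap in 7.3% of all tested genes, 3.97% higher and 3.33% lower in SRA-/- cells. The 31st gene, Rhbg, had too few counts to be tested.

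The median log2 fold change, SRA-/- over wild type, was 0.15 over 15 tested pericentral genes, with 11 above 0, and 0.12 over 15 periportal genes, with 13 above 0. Over all tested genes it was -0.01, with 48.3% above 0. Over 28 other hepatocyte genes, described below, it was 0.21, with 24 above 0, so a median above 0 was not particular to the zoned genes. The medians of both zoned sets moved with single libraries. Without wild type replicate 1, the median was 0.62 for pericentral and 0.32 for periportal genes. In that fit, 7 of 16 pericentral genes and 1 of 15 periportal genes had an unadjusted p under 0.05 by edgeR. Of all genes in that fit 7.01% did, and 0 genes of either set passed the adjusted threshold. The 7 pericentral genes included Rhbg, which had too few counts to be tested in the main fit. Without wild type replicate 3, the medians were 0.01 for pericentral and -0.05 for periportal genes. Without SRA-/- replicate 3, they were 0.18 for pericentral and -0.036 for periportal genes, with 6 of 15 periportal genes above 0.

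**Figure D1:**
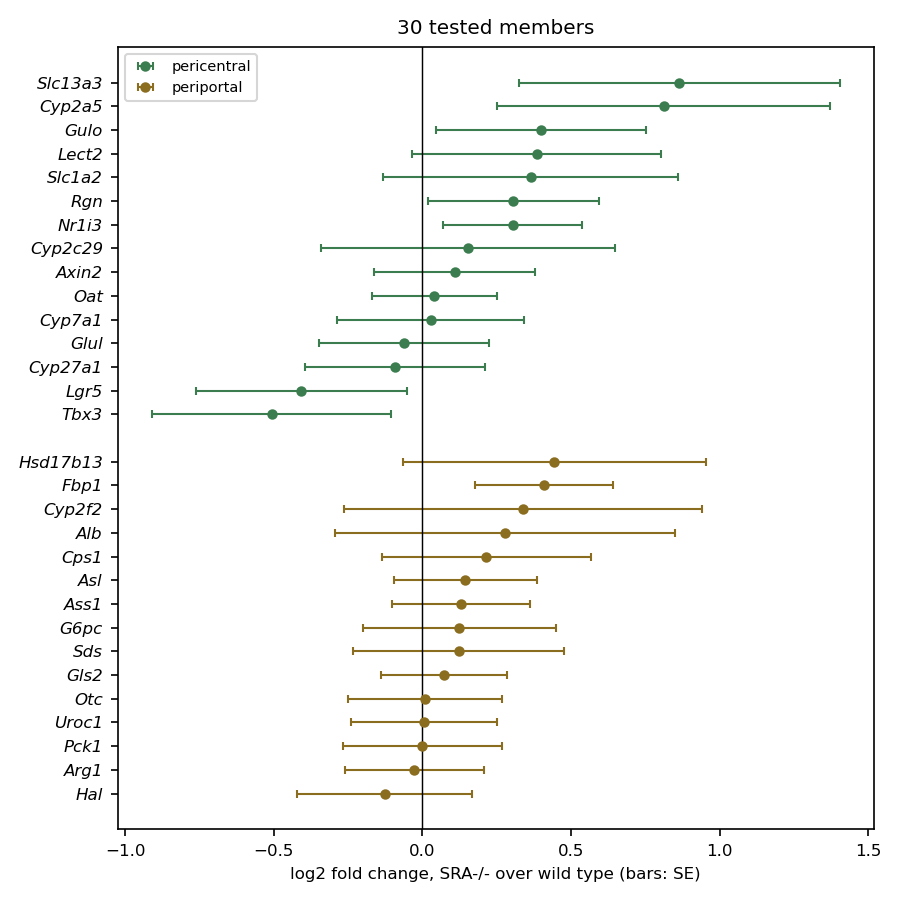
Log2 fold change, SRA-/- over wild type, of each tested gene with its standard error (bars), for 15 pericentral genes (above) and 15 periportal genes (below). Values run from -0.51 for Tbx3 to 0.86 for Slc13a3, and none passed the adjusted threshold.

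Levels differed between libraries of the same genotype. Wild type replicate 3 had the lowest CPM in 14 of 16 pericentral and 9 of 15 periportal genes, against 22.2% of all tested genes. The highest library differed between the sets. Pericentral genes were highest in wild type replicate 1 in 9 cases, in SRA-/- replicate 2 in 4 and in SRA-/- replicate 3 in 1. Periportal genes reached their highest level in SRA-/- replicate 3 in 11 cases, and the other 4 did so in wild type replicate 1. Of all tested genes, SRA-/- replicate 3 held the highest value for 16.2%, SRA-/- replicate 2 for 17.6% and wild type replicate 1 for 22.7%. The standard deviation of CPM was larger among wild type than among SRA-/- libraries in 13 of 16 pericentral and 7 of 15 periportal genes. No such count over all tested genes is given here, so this is not read as particular to these sets.

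A list of 28 other hepatocyte genes that encode plasma proteins and metabolic enzymes was also lowest in wild type replicate 3. Its CPM summed to 42989, 42934 and 72651 in SRA-/- libraries 1, 2 and 3, against 65095, 45673 and 24108 in wild type libraries 1, 2 and 3. Of the 28 genes, 27 were lowest in wild type replicate 3 and 22 highest in SRA-/- replicate 3. This sum varied 3.01-fold over the 6 libraries and the groups overlapped.

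**Figure D2:**
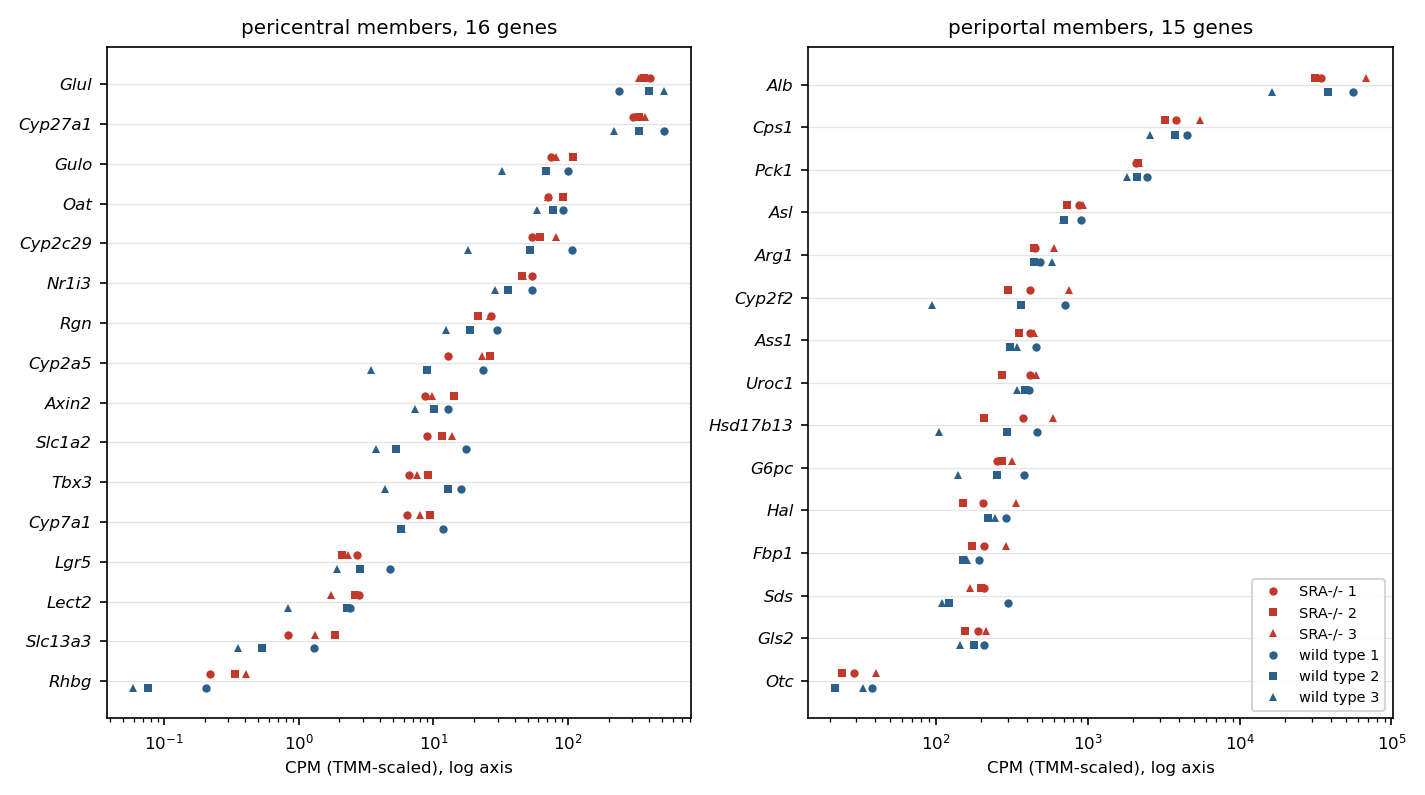
CPM of each gene in each library on a log axis, pericentral genes left and periportal genes right, with SRA-/- libraries (red) above wild type libraries (blue) for each gene and the replicate shown by the symbol. Wild type replicate 3 is the lowest point in 23 of the 31 genes, and the colours overlap in every gene but Rhbg.

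Levels of different genes were compared per kilobase of annotated exon. Per kilobase, the pericentral genes averaged from 0.112 CPM for Rhbg to 160 CPM for Cyp27a1, with a median of 5.08, and the periportal genes from 7.33 CPM for Otc to 17353 CPM for Alb, with a median of 158. The periportal set was thus represented at a higher level in these cells. Summed per kilobase, the pericentral genes gave 369.9, 404 and 398 CPM in SRA-/- libraries 1, 2 and 3, against 473, 372 and 302 CPM in wild type libraries 1, 2 and 3. The periportal genes without Alb gave 2797, 2429 and 3582 CPM in SRA-/- libraries, against 3372, 2555 and 2039 CPM in wild type libraries in the same order. The groups overlapped in both sums.

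The ratio of the pericentral sum to the periportal sum without Alb was 0.132, 0.167 and 0.111 in SRA-/- libraries 1, 2 and 3, against 0.140, 0.146 and 0.148 in wild type libraries 1, 2 and 3. On the log2 scale it averaged -2.89 ± 0.29 in SRA-/- and -2.79 ± 0.040 in wild type libraries (SD, n = 3 each), a difference of -0.10 that was smaller than the spread among SRA-/- libraries. Without SRA-/- replicate 3, the library with the lowest ratio, the difference was 0.036. Without Glul, the gene of glutamine synthetase, the ratio was 0.0942, 0.127 and 0.0864 in SRA-/- libraries 1, 2 and 3, against 0.122, 0.105 and 0.0816 in wild type libraries 1, 2 and 3. The close values of the wild type libraries thus depended on Glul, and the groups overlapped with and without it.

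A summary in which every gene weighs the same showed another order. For each gene, the log2 CPM in a library was taken relative to its mean over the 6 libraries, and the median over 15 periportal genes was subtracted from the median over the 15 pericentral genes with a mean of at least 1 CPM. This pericentral-minus-periportal balance was -0.095, 0.47 and -0.18 in SRA-/- libraries 1, 2 and 3, against 0.24, -0.061 and -0.56 in wild type libraries 1, 2 and 3. SRA-/- replicate 2 was thus tilted most towards pericentral genes and wild type replicate 3 most towards periportal genes. The balance averaged 0.066 ± 0.35 in SRA-/- and -0.13 ± 0.41 in wild type libraries (SD, n = 3 each). Its difference of 0.19 was smaller than the spread in either group, and was -0.025 without wild type replicate 3 and -0.0095 without SRA-/- replicate 2.

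The low balance of wild type replicate 3 came from a pericentral median of -0.80 and a periportal median of -0.24, so both sets were low there and the pericentral set more so. In SRA-/- replicate 2, the pericentral median was 0.27 and the periportal median -0.20. SRA-/- replicate 3, the library with most hepatocyte RNA, had medians of 0.12 and 0.29, with the periportal genes ahead, and wild type replicate 1 had 0.50 and 0.26.

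**Figure D3:**
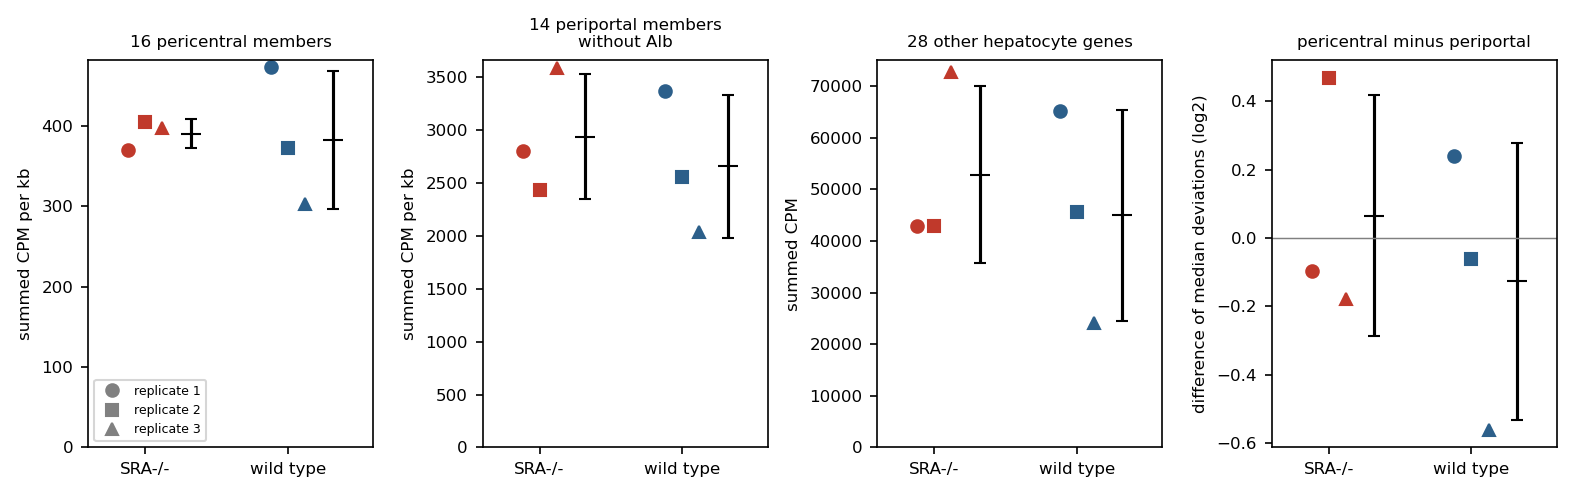
Summed levels per library of the 16 pericentral genes, of the 14 periportal genes without Alb (both CPM per kilobase) and of 28 other hepatocyte genes (CPM), and the pericentral-minus-periportal balance (log2), for SRA-/- (left, red) and wild type (right, blue) libraries. Symbols are replicates and bars the mean ± SD of 3 libraries, and the groups overlap in all 4 panels.

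Among the pericentral genes, Glul, which encodes the glutamine synthetase of the hepatocytes next to the central vein (chromosome 1, 153775690 to 153785469, mm39), stood apart. It had 403, 364 and 333 CPM in SRA-/- libraries 1, 2 and 3, against 238, 396 and 515 CPM in wild type libraries 1, 2 and 3. It was the 1 gene of 31 that was highest in wild type replicate 3, where hepatocyte RNA was lowest, and it was lowest in wild type replicate 1. Its log2 fold change was -0.06 ± 0.29 (SE; edgeR adjusted p 0.9999), and the groups overlapped.

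Endothelial markers moved in the same way as Glul. Their CPM, summed over Pecam1, Stab2, Clec4g, Kdr, Cdh5, Lyve1 and Oit3, was 2087, 1914 and 1745 in SRA-/- libraries 1, 2 and 3, against 1639, 2320 and 3123 in wild type libraries 1, 2 and 3, with none at 0. All 7 were highest in wild type replicate 3, against 23.9% of all tested genes. In wild type replicate 1, 5 were lowest, against 22.8% of all tested genes. Of 7 Kupffer cell markers, 6 were also lowest in wild type replicate 1, but only 1 was highest in wild type replicate 3. The part of endothelial or other cells in the Glul level was not tested. Glul made up 13.3% to 44.98% of the pericentral sum per kilobase. Without it that sum was 263, 308 and 309 CPM in SRA-/- libraries 1, 2 and 3, against 411, 268 and 166 CPM in wild type libraries 1, 2 and 3, so that the sum varied 2.47-fold in place of 1.57-fold over the libraries.

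Oat and the transporter genes of the pericentral set were lower than Glul. Oat, ornithine aminotransferase (chromosome 7, 132159207 to 132178127), varied 1.57-fold, with 71.4, 91.7 and 71.2 CPM in SRA-/- libraries and 92.0, 77.3 and 58.6 CPM in wild type libraries. Slc1a2, a glutamate transporter, had 8.88, 11.5 and 13.8 CPM in SRA-/- libraries and 17.5, 5.32 and 3.73 CPM in wild type libraries. The SRA-/- libraries of Slc1a2 lay between wild type replicate 1 and the other wild type libraries. Its log2 fold change was 0.36 ± 0.50, and it reached 1.34 once wild type replicate 1 was left out (edgeR adjusted p 0.239).

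Slc13a3, a carrier of dicarboxylates, had the largest log2 fold change of the 30 tested genes, at 0.86 ± 0.54 (SE; edgeR unadjusted p 0.142, adjusted p 0.9999). With 1 library left out it lay between 0.52 without wild type replicate 3 and 1.59 without wild type replicate 1. Its counts were low, with 38, 56 and 29 in SRA-/- libraries 1, 2 and 3, against 38, 14 and 12 in wild type libraries 1, 2 and 3, or 0.827, 1.87 and 1.32 CPM against 1.31, 0.532 and 0.355 CPM. Wild type replicate 1 lay within the SRA-/- range. Rhbg, an ammonium transporter, had 10, 10 and 9 counts in SRA-/- libraries and 6, 2 and 2 in wild type libraries. Scaled to library size, its groups did not overlap, but every wild type library was at or under 6 counts, it failed the filter on low counts, and 61.4% of its exon bases are shared with the predicted gene Gm38392, where reads are not assigned to either.

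Of the P450 genes of drug oxidation, both varied widely, 7.70-fold for Cyp2a5 and 5.92-fold for Cyp2c29. Cyp2a5, an enzyme that oxidises coumarin and nicotine (chromosome 7, 26534730 to 26542973), had 12.8, 26.5 and 23.0 CPM in SRA-/- libraries 1, 2 and 3, against 23.2, 8.88 and 3.44 CPM in wild type libraries 1, 2 and 3. Wild type replicates 2 and 3 lay below all SRA-/- libraries and wild type replicate 1 among them. Its log2 fold change was 0.81 ± 0.56 (SE; edgeR unadjusted p 0.180, adjusted p 0.9999). Leaving out 1 library gave 0.37 without wild type replicate 3 and up to 1.76 without wild type replicate 1. Cyp2c29, a P450 of drug and fatty acid oxidation, had 53.8, 62.0 and 81.5 CPM in SRA-/- libraries and 107, 51.7 and 18.2 CPM in wild type libraries. Its highest and lowest values were both in wild type libraries. Both genes have close paralogs, and reads that align to several places were not counted, so their levels are uncertain.

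Nr1i3, the nuclear receptor CAR that induces P450 genes (chromosome 1, 171041539 to 171048270), had 53.6, 45.5 and 46.5 CPM in SRA-/- libraries 1, 2 and 3, against 53.8, 35.7 and 28.6 CPM in wild type libraries 1, 2 and 3. Its log2 fold change was 0.30 ± 0.23 (SE; edgeR unadjusted p 0.227, adjusted p 0.9999). Of its exon bases 74.9% are shared with Tomm40l, so its count rests on the rest of the gene. Wild type replicate 1 lay just above the highest SRA-/- library and the other wild type libraries below the lowest.

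Bile acid synthesis was represented by Cyp27a1 and Cyp7a1. Cyp27a1, the mitochondrial sterol 27-hydroxylase (chromosome 1, 74752733 to 74777051), which macrophages also express, had the highest level per kilobase of the set, with 303, 334 and 371 CPM in SRA-/- libraries 1, 2 and 3, against 518, 338 and 219 CPM in wild type libraries 1, 2 and 3. Cyp7a1, the rate-limiting enzyme of bile acid synthesis, had 6.33, 9.42 and 7.99 CPM in SRA-/- libraries and 11.7, 5.73 and 5.80 CPM in wild type libraries. In both genes the SRA-/- libraries lay inside the wild type range. Their log2 fold changes were -0.09 ± 0.30 and 0.03 ± 0.31.

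Of the targets and regulators of Wnt signalling, Tbx3, Lgr5 and Axin2 lay between 1.92 and 15.9 CPM. Tbx3, a transcription factor downstream of beta-catenin (chromosome 5, 119808734 to 119822789), had 6.62, 9.12 and 7.58 CPM in SRA-/- libraries 1, 2 and 3, against 15.9, 12.9 and 4.35 CPM in wild type libraries 1, 2 and 3. Its log2 fold change of -0.51 ± 0.40 was the lowest of the 30 (SE; edgeR unadjusted p 0.237, adjusted p 0.9999), and it was -0.89 once wild type replicate 3 was left out (edgeR adjusted p 0.604). Lgr5, a receptor of R-spondins, had 2.72, 2.10 and 2.32 CPM in SRA-/- libraries and 4.74, 2.85 and 1.92 CPM in wild type libraries. Axin2, a negative feedback regulator of the pathway, lay between 8.64 and 14.3 CPM in SRA-/- libraries and between 7.34 and 12.8 CPM in wild type libraries. All 3 were lowest in wild type replicate 3, and all 3 are also transcribed by cells other than hepatocytes.

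The remaining pericentral genes were Gulo, of ascorbate synthesis in mice, Rgn, the calcium-binding regucalcin, and Lect2, a secreted protein of hepatocytes. Gulo (chromosome 14, 66224235 to 66246656) had 74.3, 109 and 80.8 CPM in SRA-/- libraries 1, 2 and 3, against 100.1, 68.1 and 32.3 CPM in wild type libraries 1, 2 and 3. Rgn lay between 21.5 and 26.9 CPM in SRA-/- libraries and between 12.4 and 29.4 CPM in wild type libraries. Lect2 lay between 1.72 and 2.79 CPM in SRA-/- libraries and between 0.829 and 2.41 CPM in wild type libraries. Wild type replicate 3 was lowest in all 3 genes, whose log2 fold changes were 0.40, 0.31 and 0.38.

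**Figure D4:**
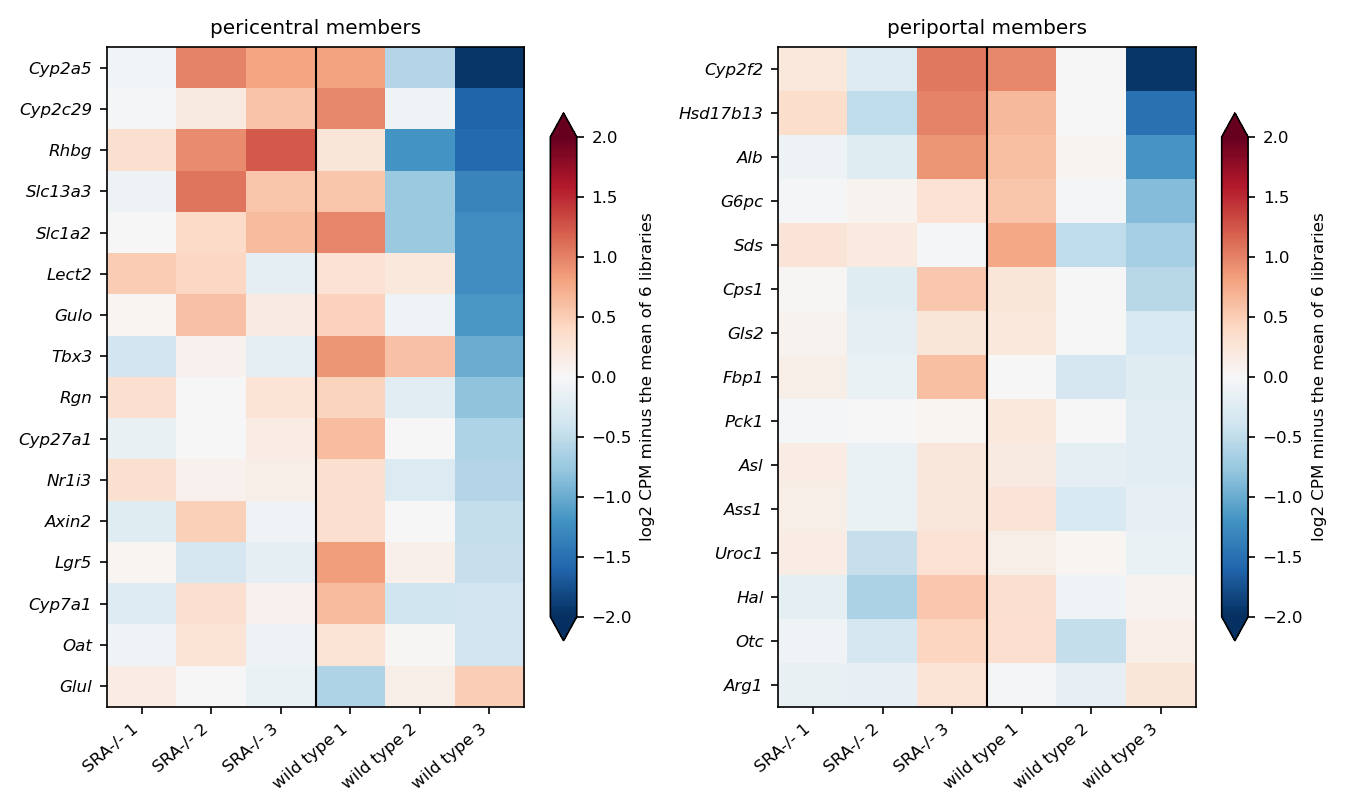
Log2 CPM of each gene relative to its mean over the 6 libraries (colour, red higher, blue lower), SRA-/- libraries left and wild type libraries right of the line, for pericentral genes (left panel) and periportal genes (right panel), ordered in each by the value in wild type replicate 3. In that library Cyp2a5 and Cyp2f2 both lie at -1.95, and 4 genes, Hal, Otc, Arg1 and Glul, lie above their means.

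The periportal genes differed widely in spread, also within groups of shared function. Urea cycle genes, which dispose of ammonia, varied between 1.35-fold for Asl and 2.15-fold for Cps1. Cps1, the first enzyme of the cycle and the most abundant periportal gene after Alb (chromosome 1, 67162185 to 67270418), had 3827, 3208 and 5510.2 CPM in SRA-/- libraries 1, 2 and 3, against 4491, 3759 and 2562 CPM in wild type libraries 1, 2 and 3. Asl, argininosuccinate lyase (chromosome 5, 130040099 to 130058088), had 883, 726 and 932 CPM in SRA-/- libraries and 904, 703 and 691 CPM in wild type libraries. Arg1, arginase 1, which macrophages also express (chromosome 10, 24791119 to 24803382), had 447, 442 and 601 CPM in SRA-/- libraries and 488, 445 and 585 CPM in wild type libraries. In Arg1, wild type replicate 3 was the second highest of the 6 libraries, unlike in most other genes.

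Ass1, argininosuccinate synthase, lay between 352 and 446 CPM in SRA-/- libraries and between 310.1 and 460 CPM in wild type libraries, a spread of 1.48-fold. Otc, ornithine transcarbamylase, lay between 24.0 and 40.7 CPM in SRA-/- libraries and between 21.7 and 38.1 CPM in wild type libraries. For the 5 urea cycle genes the log2 fold changes ran from -0.03 for Arg1 to 0.21 for Cps1, each smaller than its standard error.

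Gluconeogenesis was led by Pck1, the cytosolic phosphoenolpyruvate carboxykinase (chromosome 2, 172994841 to 173001066). It had 2074, 2135 and 2174 CPM in SRA-/- libraries 1, 2 and 3, against 2463, 2115 and 1803 CPM in wild type libraries 1, 2 and 3. The means were 2128 ± 50.3 CPM in SRA-/- and 2127 ± 330.1 CPM in wild type libraries (SD, n = 3 each), with a log2 fold change of 0.00021 ± 0.27. Fbp1, fructose bisphosphatase 1 (chromosome 13, 63012567 to 63036096), had 206, 174 and 289 CPM in SRA-/- libraries and 192, 151 and 162 CPM in wild type libraries. Its unadjusted p of 0.110 by edgeR was the lowest of the 30 genes, at a log2 fold change of 0.41 ± 0.23 (SE; edgeR adjusted p 0.9999), and SRA-/- replicate 2 lay below wild type replicate 1. G6pc, the catalytic subunit of glucose 6-phosphatase, lay between 254 and 316 CPM in SRA-/- libraries and between 141 and 378 CPM in wild type libraries.

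Enzymes of amino acid breakdown gave overlapping groups too. Hal and Uroc1, which act one after the other on histidine, were lowest in SRA-/- replicate 2 and highest in SRA-/- replicate 3. Hal lay between 151 and 339 CPM in SRA-/- libraries and between 219 and 292 CPM in wild type libraries, and Uroc1 between 271 and 458 CPM and between 343 and 408 CPM in the same groups. Gls2, liver glutaminase, varied 1.48-fold, with 157 to 214 CPM in SRA-/- libraries and 145 to 209 CPM in wild type libraries. Sds, serine dehydratase, had 207, 199.5 and 169 CPM in SRA-/- libraries 1, 2 and 3, against 297, 122 and 109 CPM in wild type libraries 1, 2 and 3. As in Slc1a2, the SRA-/- libraries of Sds lay between wild type replicate 1 and the other wild type libraries, and its log2 fold change of 0.12 ± 0.36 became 0.74 once wild type replicate 1 was left out (edgeR adjusted p 0.404).

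Alb, Cyp2f2 and Hsd17b13 varied most of the periportal genes. Alb (chromosome 5, 90608756 to 90624461) had 34342, 31262 and 68031 CPM in SRA-/- libraries 1, 2 and 3, against 55804, 38175 and 16227 CPM in wild type libraries 1, 2 and 3. Cyp2f2, a P450 that activates naphthalene (chromosome 7, 26819334 to 26833085), had 419, 301 and 750.2 CPM in SRA-/- libraries and 706, 362 and 93.7 CPM in wild type libraries. Hsd17b13, a lipid droplet protein (chromosome 5, 104103306 to 104125276), had 377, 209 and 590.4 CPM in SRA-/- libraries and 465, 294 and 105 CPM in wild type libraries. All 3 had their highest level in SRA-/- replicate 3, their next in wild type replicate 1 and their lowest in wild type replicate 3, with spreads of 4.19-fold, 8.003-fold and 5.61-fold. Their log2 fold changes were 0.28 ± 0.57, 0.34 ± 0.60 and 0.44 ± 0.51.

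A spread of more than 3-fold between the highest and the lowest library was found in 8 of 16 pericentral and 3 of 15 periportal genes. The pericentral count included Rhbg, Slc13a3 and Lect2, each under 1 CPM in at least 1 library. A spread of less than 1.5-fold was found in 0 pericentral and 5 periportal genes, namely Gls2, Ass1, Arg1, Asl and Pck1. No such counts over all tested genes are given here, so they are not read as particular to these sets. The median spread was 2.91-fold over pericentral genes, the low ones included, and 1.92-fold over periportal genes. It was 1.96-fold over all tested genes, with very low minima raised to a fixed floor, and 3.40-fold over the 28 other hepatocyte genes. Periportal genes thus included both the steadiest and the most variable of the 31.

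Levels were also set against hepatocyte RNA rather than against all RNA. Counts were expressed per 1000 counts of the 28 other hepatocyte genes. On that scale the spread became narrower in 10 of 16 pericentral and 6 of 15 periportal genes and wider in the others, with a median of 2.48-fold over pericentral and 2.27-fold over periportal genes. Alb narrowed from 4.19-fold to 1.39-fold and Hsd17b13 from 5.61-fold to 2.01-fold over the 6 libraries. By contrast, Arg1 had 10.4, 10.3 and 8.27 per 1000 in SRA-/- libraries 1, 2 and 3, against 7.50, 9.74 and 24.3 per 1000 in wild type libraries 1, 2 and 3. Pck1 had 48.2, 49.7 and 29.9 per 1000 in SRA-/- libraries and 37.8, 46.3 and 74.8 per 1000 in wild type libraries. Glul, at 9.37, 8.48 and 4.59 per 1000 in SRA-/- libraries and 3.65, 8.66 and 21.3 per 1000 in wild type libraries, had the widest spread on that scale, at 5.84-fold.

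Wild type replicate 3 was the highest library per hepatocyte RNA in 10 of 15 periportal and 5 of 16 pericentral genes. That library had the lowest sum of hepatocyte genes, and on this scale it was the highest for 80.9% of all tested genes. The exceptions among the periportal genes were Cyp2f2, Sds, G6pc, Hsd17b13 and Alb. Cyp2a5 and Cyp2c29 stayed lowest in wild type replicate 3 on that scale, at 0.142 and 0.753 per 1000. With this scaling, edgeR also called 0 of the 30 genes. The median log2 fold change was then 0.078 over pericentral genes, with 8 of 15 above 0. Over periportal genes it was -0.20, with 4 of 15 above 0. This scaling also moved the median of all tested genes by -0.37, to -0.38. Relative to that median of all tested genes, the pericentral median was 0.46 and the periportal median 0.17.

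**Figure D5:**
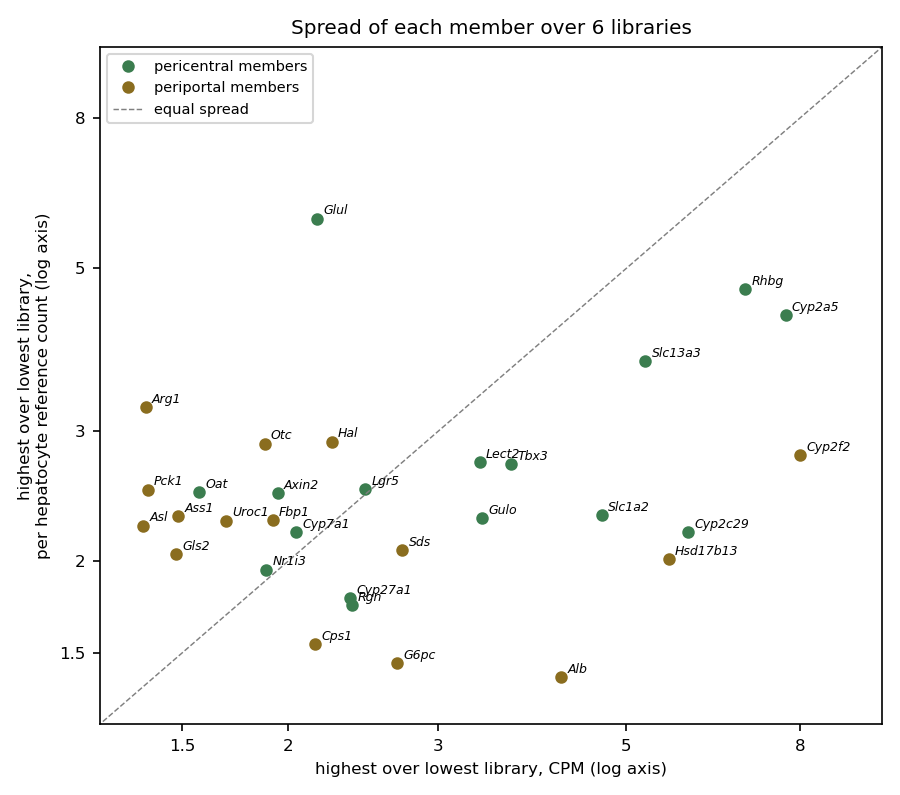
Ratio of the highest to the lowest of the 6 libraries for each gene, on log axes, scaled to all RNA (x axis, CPM) and to 28 other hepatocyte genes (y axis), with pericentral genes in green and periportal genes in brown. Alb, at 4.19-fold and 1.39-fold, lies far below the dashed line of equal spread and Glul, at 2.16-fold and 5.84-fold, far above it.

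The promoter sequences of genes from both ends of this range are shown because their genes were, with Alb, lowest in wild type replicate 3 by a wide margin (Cyp2f2, Cyp2c29 and Cyp2a5), varied little (Pck1) or were highest there (Glul). RefSeq promoters were found for 20 of the 31 genes, 10 in each set. The 250 bases before the RefSeq start are given 5′ to 3′ on the plus strand in GRCm38.p6, an older build than that of the counts: Alb chr5:90460620-90460869, Cyp2f2 chr7:27119705-27119954, Pck1 chr2:173152823-173153072, Cyp2c29 chr19:39286835-39287084, Cyp2a5 chr7:26835089-26835338 and Glul chr1:153899679-153899928. Capitals mark 4 motifs searched on both strands: CTTTGAT, bound by TCF/LEF factors of the Wnt pathway, GTTAAT, a HNF1 half-site, CCAAT and the TATA box TATAAA. No matches overlapped in these 6 sequences.
Alb promoter: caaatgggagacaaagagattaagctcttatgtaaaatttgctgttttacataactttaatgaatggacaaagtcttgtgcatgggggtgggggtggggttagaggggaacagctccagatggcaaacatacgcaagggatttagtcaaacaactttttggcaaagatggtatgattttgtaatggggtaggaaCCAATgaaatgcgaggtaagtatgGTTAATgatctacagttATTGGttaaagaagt
Cyp2f2 promoter: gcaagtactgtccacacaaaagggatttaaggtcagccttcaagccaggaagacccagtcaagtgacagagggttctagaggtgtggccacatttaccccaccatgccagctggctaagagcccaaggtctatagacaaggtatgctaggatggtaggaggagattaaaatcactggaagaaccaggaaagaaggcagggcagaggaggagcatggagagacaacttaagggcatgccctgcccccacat
Pck1 promoter: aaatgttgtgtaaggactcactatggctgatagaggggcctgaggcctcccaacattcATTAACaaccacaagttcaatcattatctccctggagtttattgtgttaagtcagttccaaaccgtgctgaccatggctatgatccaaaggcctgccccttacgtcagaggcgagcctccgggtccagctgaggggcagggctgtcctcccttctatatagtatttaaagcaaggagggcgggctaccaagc
Cyp2c29 promoter: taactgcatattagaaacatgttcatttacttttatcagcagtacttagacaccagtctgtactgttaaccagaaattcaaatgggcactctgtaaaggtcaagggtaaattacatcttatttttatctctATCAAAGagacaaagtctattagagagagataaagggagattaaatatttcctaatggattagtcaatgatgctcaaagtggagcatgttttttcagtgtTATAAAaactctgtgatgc
Cyp2a5 promoter: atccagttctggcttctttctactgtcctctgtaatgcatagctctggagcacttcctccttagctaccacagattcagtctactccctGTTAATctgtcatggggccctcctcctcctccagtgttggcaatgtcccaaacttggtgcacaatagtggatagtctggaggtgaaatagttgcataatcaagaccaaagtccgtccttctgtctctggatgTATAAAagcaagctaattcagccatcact
Glul promoter: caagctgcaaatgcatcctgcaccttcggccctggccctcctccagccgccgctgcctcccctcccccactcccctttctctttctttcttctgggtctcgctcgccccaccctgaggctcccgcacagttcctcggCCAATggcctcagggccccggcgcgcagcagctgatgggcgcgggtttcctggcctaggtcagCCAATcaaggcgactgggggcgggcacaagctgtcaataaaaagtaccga

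In these windows, Alb held a GTTAAT match starting 32 bases before the start and CCAAT matches at 56 and 15 bases. Cyp2a5 held GTTAAT at 161 bases and TATAAA at 29 bases, and Cyp2c29 held CTTTGAT at 119 bases and TATAAA at 19 bases. Pck1 held GTTAAT at 192 bases, Glul held CCAAT at 113 and 50 bases, and Cyp2f2 held none of the 4 motifs. Over the 20 promoters, CTTTGAT occurred in 3 of 10 pericentral and 2 of 10 periportal genes, against 3.23% of 27025 RefSeq promoters. GTTAAT occurred in 2 of 10 pericentral and 3 of 10 periportal genes, against 6.52% of all promoters. CCAAT occurred in 8 of the 20, against 34.5% of all, and TATAAA in 4 of the 20, against 13.0% of all. A match is a run of letters, not a measured site, and these counts describe 20 promoters.

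Wider lists of zoned genes were also tested. Of 20 other pericentral genes, among them the acetaminophen-activating Cyp2e1, 19 were tested and 0 were called by edgeR or had an unadjusted p under 0.05, with a median log2 fold change of 0.23 and 14 above 0. The lowest unadjusted p in this list were those of Cyp2c54, at 0.77 ± 0.45, and Cyp2c50, at 0.75 ± 0.44. Of 20 other periportal genes 0 were called and 0 had an unadjusted p under 0.05, with a median of 0.18 and 14 above 0, and those with the lowest p were Fads1, at 0.38 ± 0.23, and Aldh1b1, at 0.65 ± 0.44. Wild type replicate 3 was lowest in 17 of the 20 other pericentral and 13 of the 20 other periportal genes, and SRA-/- replicate 3 highest in 5 and 13.

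A list of genes that signal or regulate zonation, to which Hamp was added, was also followed. Of its 20 genes 19 were tested, with a median log2 fold change of -0.01 and 0 called by edgeR. Hamp, the iron hormone hepcidin made by hepatocytes, was higher in each SRA-/- library, with 101, 92.1 and 149 CPM, than in each wild type library, with 88.5, 77.1 and 47.1 CPM, at a log2 fold change of 0.69 ± 0.27 (SE; edgeR unadjusted p 0.0317, adjusted p 0.9999). It was the 1 gene of this list with an unadjusted p under 0.05, and 2.32% of all tested genes had one with higher values in SRA-/- libraries. Apc, of the complex that degrades beta-catenin, was the 1 gene of the list that was lower in each SRA-/- than in each wild type library. It had 100.3, 116.6 and 108 CPM in SRA-/- libraries and 118, 116.9 and 146 CPM in wild type libraries. The groups were thus barely apart, at 116.6 against 116.9 CPM, and its unadjusted p by edgeR was above 0.05. Groups did not overlap in 3.97% of all tested genes with higher and in 3.33% with lower SRA-/- values. Wnt9b, a Wnt ligand of the central vein endothelium, had 2.48, 3.24 and 5.17 CPM in SRA-/- libraries 1, 2 and 3, against 4.64, 5.20 and 5.15 CPM in wild type libraries 1, 2 and 3, a log2 fold change of -0.47 ± 0.30. Its groups overlapped, with SRA-/- replicate 3 inside the wild type range.

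Transcripts of other cells differed between libraries as well. Summed over 17 genes of pancreatic acinar cells, CPM was 4.83, 343 and 3.45 in SRA-/- libraries 1, 2 and 3, against 542, 474 and 915 in wild type libraries 1, 2 and 3, and all 17 genes were highest in wild type replicate 3, the library lowest in hepatocyte genes. In this list 10 genes were at 0 in at least 1 library. Summed over 6 neutrophil markers, CPM was 114, 35.2 and 145 in SRA-/- libraries, against 12.03, 26.3 and 31.8 in wild type libraries, and Ly6g was at 0 in at least 1 library. The groups overlapped in neither sum. Lower in SRA-/- cells without overlap were 15 of 16 tested acinar genes, against 3.33% of all tested genes. Higher without overlap were 3 of 5 tested neutrophil, 4 of 6 lymphocyte and 1 of 5 monocyte and macrophage markers. The share over all tested genes was 3.97%. The part of these cells in the values above was not tested.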

How the data were processed

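Libraries of ribosome-depleted total RNA (KAPA kit, per the labels' protocols) were grouped and numbered by their titles, which call the replicates biological. The submitters' processing notes list FastQC, STAR and featureCounts and the build mm39. The deposited values are raw counts per gene name, summed over exons by the authors with featureCounts 2.0.2 and GENCODE M26, per the file headers, with no strand and without reads that match several places or genes. Mates were counted singly: 68.5% to 71.9% of counts from 1 to 4 were even. Floors are therefore 6 counts and cover counting error only. Coordinates are those of the files.

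edgeR 4.0.16 in R 4.3.3 (filterByExpr, TMM scaling, robust quasi-likelihood fit on genotype) tested 20541 genes, with Benjamini-Hochberg adjustment over all of them and a threshold of 0.05. Standard errors come from the log2 fold change and its F statistic. With 3 against 3 libraries an exact permutation test of a single value cannot go below p = 0.1, so none was used. The members and lists were chosen with earlier results of these data known. Every member is named, with each library's value for those with the 4 lowest p, the 4 highest levels per kilobase or groups without overlap in each set, and of other lists the 2 with the lowest p are named. Alternatives were DESeq2 1.42.0, limma-voom (limma 3.58.1), other scalings and filters, a replicate block and each library left out. The summed ratio without Glul and Alb was chosen after seeing the data. The closest pair of libraries still differed beyond sampling noise (chi-square per degree of freedom 31.8). The fits were tested on simulated data.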

Additional observations from a re-analysis of the deposited data

How the results depend on the processing

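No alternative called any of the genes it tested of either set: the count was 0 for both sets in every setting. The lowest adjusted p was 0.239 (edgeR) among the 30 genes tested in the main fit, which leave out Rhbg. The count over all genes, 10 in the main test, was 16 scaled to the hepatocyte list, 68 by DESeq2, 75 by limma-voom, 32 with no filter on low counts, and 3 to 40 with 1 library left out (3 without SRA-/- replicate 3, 4 without SRA-/- replicate 1 or wild type replicate 2, and 40 without SRA-/- replicate 2). With the replicate number as a block it was 5. The labels do not state that the numbers pair the mice. Deviations from group means correlated across genes with r of -0.29, -0.14 and -0.13 in same-numbered libraries. In differently numbered libraries r ran from -0.086 to 0.26. These values show no shared effect of the number but cannot decide whether mice were paired. Under the block the log2 fold change of Glul was 0.0016 and that of Uroc1 -0.026.

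Of 450 values of single genes under alternatives, 393 kept their direction and 57 changed it, none past a threshold in either direction. With library totals alone, the log2 fold change was -0.013 for Otc, -0.012 for Pck1 and -0.019 for Uroc1. By limma-voom it was -0.017 for Oat, -0.013 for Axin2 and 0.10 for Arg1. Scaled to the hepatocyte list it was -0.21 for Oat, -0.12 for Axin2, -0.20 for Cyp7a1, -0.26 for Gls2, -0.10 for Cps1, -0.22 for Ass1, -0.20 for Asl, -0.44 for Otc, -0.31 for Pck1, -0.052 for G6pc, -0.013 for Fbp1 and -0.38 for Uroc1. With 1 library left out, 19 genes changed direction. Their log2 fold changes ran from -0.16 to 0.71 for Alb, -0.19 to 0.091 for Arg1, -0.14 to 0.32 for Axin2, -0.036 to 0.41 for Cps1, -0.35 to 0.28 for Cyp27a1, -0.28 to 0.92 for Cyp2c29, -0.12 to 1.11 for Cyp2f2, -0.15 to 0.46 for Cyp7a1, -0.17 to 0.51 for G6pc, -0.053 to 0.21 for Gls2 and -0.30 to 0.21 for Glul. They ran from -0.51 to 0.10 for Hal, -0.67 to 0.012 for Lgr5, -0.12 to 0.21 for Oat, -0.23 to 0.19 for Otc, -0.11 to 0.13 for Pck1, -0.13 to 0.74 for Sds, -0.0048 to 1.34 for Slc1a2 and -0.15 to 0.20 for Uroc1. The other 11 kept their direction, with ranges of 0.37 to 1.76 for Cyp2a5, 0.52 to 1.59 for Slc13a3, 0.069 to 0.29 for Asl, 0.016 to 0.32 for Ass1, 0.18 to 0.56 for Fbp1, 0.067 to 0.82 for Gulo, 0.024 to 0.97 for Hsd17b13, 0.028 to 0.64 for Lect2, 0.12 to 0.60 for Nr1i3, 0.052 to 0.69 for Rgn and -0.89 to -0.14 for Tbx3. The cause of these changes was not tested. The difference in balance ran from -0.025 to 0.38 with 1 library left out and from 0.12 to 0.27 under other settings. That in the log2 summed ratio ran from -0.26 to 0.036 and from -0.27 to -0.0040. That in log2 summed hepatocyte RNA, 0.30, was -0.091 without wild type replicate 3 and 0.63 without wild type replicate 1.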
